A study of Mus musculus with 8 samples.

Results

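Integrin subunit transcripts were measured in mouse CD8 T cells in which a retroviral vector for either of the proteins encoded by Tox was present or absent. The 10 genes described, Itgae, Itgb7, Itgal, Itgb2, Itga4, Itgb1, Itgav, Itga6, Itgb3 and Itga1, were chosen by symbol as integrin chains of interest in T cells. They comprised 6 alpha and 4 beta chains, each with 1 row among the 31815 genes of the deposited table. Of these, 9 passed the filter on low counts and Itga1 did not. All cells came from spleens of OTI mice (C57BL/6-Tg(TcraTcrb)1100Mjb/J), whose T cell receptor recognises an ovalbumin peptide. Naive cells saw the peptide for 3 days, and a vector for full-length TOX (TOXFL) or for TOXdeltaN was added after 24 h. GFP from the same vector marked the cells that carried it, and sorting followed on day 5. For each of the constructs, GFP-negative and GFP-positive cells gave 2 libraries apiece, so there were 4 groups, and the positive groups held only the brightest 20% of GFP-positive cells. The negative cells had thus been through the same stimulation and exposure to virus, and carried endogenous Tox. A group with a vector for GFP alone was not analysed here, so the presence of a vector and that of a TOX protein cannot be told apart.

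Integrins are heterodimers of an alpha and a beta chain that bind cells to matrix and to other cells. On T cells, the alpha L beta 2 pair (LFA-1) binds ICAM proteins during contact with antigen-presenting and target cells. Alpha 4 pairs with beta 1 to bind VCAM1 and fibronectin, or with beta 7 to bind MADCAM1 in gut vessels, and alpha E with beta 7 (CD103) binds E-cadherin on epithelium.

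In the fit that pairs libraries by replicate number, the Itga4 transcript differed both with GFP and between those numbers. Without that pairing its average GFP difference was not called (edgeR adjusted p = 0.16). Upstream sequence is shown for Itga4 and for Itgb7, which encodes its beta 7 partner and gave the highest level per length. Each is the stretch of 250 bases before the gene's start from RefSeq on GRCm38.p6, written 5′ to 3′ on the gene's strand, with motif matches in capitals. The Itga4 stretch is chr2:79255176-79255425 on the plus strand and the Itgb7 stretch is chr15:102231936-102232185 on the minus strand.
Itga4: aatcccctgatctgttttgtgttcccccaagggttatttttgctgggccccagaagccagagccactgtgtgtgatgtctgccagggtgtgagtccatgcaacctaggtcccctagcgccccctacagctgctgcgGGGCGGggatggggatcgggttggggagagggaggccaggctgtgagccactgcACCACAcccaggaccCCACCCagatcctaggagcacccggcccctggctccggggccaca
Itgb7: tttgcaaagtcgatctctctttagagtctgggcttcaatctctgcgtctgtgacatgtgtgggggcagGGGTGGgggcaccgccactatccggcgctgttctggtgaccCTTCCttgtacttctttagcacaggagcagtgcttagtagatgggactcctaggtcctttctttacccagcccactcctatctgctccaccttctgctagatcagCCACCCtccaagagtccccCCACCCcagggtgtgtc
Motifs were searched on either strand. The core bound by ETS factors was taken as GGAAG and that bound by RUNX factors as TGTGGT. For the box bound by SP factors, called the GC box, the letters were GGGCGG, and for the box bound by erythroid-type KLF factors, called the KLF box here, they were CCACCC. The usual core promoter element was searched as TATAAA. No matches overlapped. The Itga4 stretch held 1 RUNX core beginning 60 bases before the start, 1 GC box at 114 bases and 1 KLF box at 45 bases. That of Itgb7 held 1 ETS core at 141 bases and 3 KLF boxes between 17 and 182 bases before the start. Among 32851 promoters of the same length, 64.1% held the ETS core, 14% the RUNX core, 32.7% the GC box, 28.1% the KLF box and 12.4% the core promoter element. These matches are letters in a window and were not tested as binding sites.

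Library totals lay between 25059112 and 31240067 counts, with 16577 to 16943 genes detected. Tox, the gene the vectors carry, was at 21.8 to 34.4 CPM in the negative libraries and 82.9 to 126 CPM in the positive ones. CPM are counts scaled to 1000000 per library with TMM factors. The summed CD8 T cell markers stood at 4400 to 4910 CPM. Among them Cd8b1, the CD8 beta chain, named after its values were seen, was at 742 and 667 CPM in TOXFL-negative and 614 and 493 CPM in TOXFL-positive libraries, and at 788 and 657 CPM against 624 and 568 CPM with TOXdeltaN. It was lower with GFP in the fit with a replicate block (average log2 -0.31, SE 0.054, edgeR adjusted p = 0.00611) and not called without it (adjusted p = 0.0976), and its part in the integrin results was not tested. Of the other markers in that list, Cd3e and Cd2 also had lower group means in positive cells of both constructs. Cd8a, Cd3d, Cd3g and Lck had higher ones. Cd8a, the CD8 alpha chain, had means of 721 CPM in TOXFL-negative and 760.6 CPM in TOXFL-positive cells. With TOXdeltaN its means were 732.9 and 775.5 CPM. Summed levels were at most 2.2 CPM for 9 myeloid and dendritic markers and 0.48 CPM for 8 platelet and megakaryocyte markers, 4 of which had no count. The labels do not say that the replicates came from separate animals or cultures, so a p measures only how these libraries vary, which may be technical. The TOXdeltaN-positive group had the widest spread, with a chi-square of 41.9 per degree of freedom between its libraries against 11.9 to 20.3 in the other groups. Its replicate 2 held the lowest value of all 8 libraries for 9 of 9 integrin genes tested, and for 25.8% of all tested genes. Where calls of integrin genes changed without either of the TOXdeltaN-positive libraries, calls or values from those omissions are therefore given beside the results.

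By level per kilobase of annotated exon, Itgb7 came first at 461 CPM per kb (mean of 8 libraries, range 365 to 545), followed by Itgb2, the beta 2 chain of LFA-1, at 183 (164 to 192). Itgal, the alpha chain of LFA-1, had 72.9 CPM per kb (51.0 to 85.8) and Itgb1, the beta 1 chain shared by many matrix receptors, had 46.2 (41.2 to 52.6). Itgae followed at 22.2 (12.1 to 31.2), then Itgb3 at 14.8 (11.8 to 16.2) and Itga6 at 12.5 (8.57 to 14.97). Itga4 and Itgav were lower still, at 4.77 (3.08 to 7.19) and 4.42 (3.31 to 4.81) CPM per kb. The ranges over libraries overlapped between the neighbours Itgal and Itgb1, Itgae and Itgb3, Itgb3 and Itga6, and Itga4 and Itgav, and the other neighbours were separate. With the longest coding transcript as the length, Itgb3 and Itga6 changed places.

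The genes are dispersed over the genome (GRCm38, GENCODE annotation). Itgb7 lies at chr15:102215995-102231944 on the minus strand, and the plus strand holds Itgb2 at chr10:77530252-77565708, Itgal at chr7:127296260-127335138 and Itgb1 at chr8:128685654-128733200. Itgae and Itgb3 are both on chromosome 11, at chr11:73090583-73147446 and chr11:104608000-104670476. Itgav, at chr2:83724397-83806916, shares chromosome 2 with Itga4, and 634 of its exon bases overlap Gm13684 on the opposite strand, which had 23 to 51 counts against 891 to 1644 for Itgav.

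**Figure D1:**
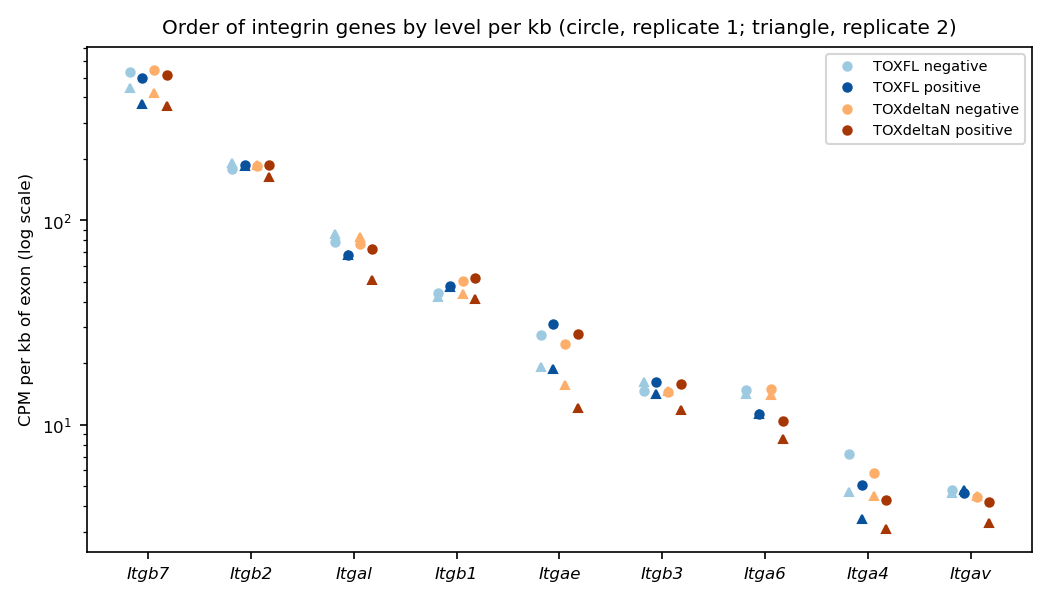
Level of the 9 tested integrin genes in CPM per kb of exon on a log axis, with 1 point per library, coloured by group (circle, replicate 1, triangle, replicate 2). Itgb7 lies above every other gene in all 8 libraries, and Itga4 and Itgav lie lowest.

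Itga1, the alpha 1 chain of a collagen receptor found on resident T cells, was close to undetected. Its counts were 1 and 2 in TOXFL-negative, 10 and 0 in TOXFL-positive, 6 and 2 in TOXdeltaN-negative and 0 and 2 in TOXdeltaN-positive libraries. The counts of 0 allow up to 3 counts, or 0.0941 CPM in TOXFL-positive replicate 2 and 0.103 CPM in TOXdeltaN-positive replicate 1 (counting error only). Itga1 entered only the fit without the filter on low counts, where it was not called, and no difference is given for it at this depth. In the annotation 685 of its exon bases overlap Gm49395 on the same strand.

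The first question was whether cells with a vector differed from those without it in integrin transcripts. Itga6 was 28.4% lower in GFP-positive cells on the average of the 2 constructs, and Itga4 was lower by 28.5% in the fit that pairs libraries by replicate number. Itgal and Itgb7 had lower values in the positive library of all 4 same-numbered pairs but did not pass the test. Itgb2, Itgb1, Itgb3, Itgav and Itgae moved by less than 10% on that average. In bulk RNA, fewer cells with a transcript and less of it per cell cannot be told apart.

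By edgeR's quasi-likelihood test with Benjamini-Hochberg adjustment over 13329 genes at a threshold of 0.05, 0 of 9 integrin genes were called with TOXFL, beside 0.045% of all tested genes. There was 1 member with an unadjusted p under 0.05, beside 1790 of all 13329 genes, and DESeq2 and limma-voom called 0. With TOXdeltaN the test also called 0 of 9 (all genes, 0.03%), while DESeq2 called 1 (all genes, 0.908%) and limma-voom 0. Here 2 members had an unadjusted p under 0.05, beside 1632 of all 13329 genes. The average of both effects gave 1 member, lower, where 2.42% of all genes were called and 1.08% were called lower. With the replicate number as a block, TOXFL gave 1 member, lower (all genes 3.48%, lower 1.97%), and TOXdeltaN gave 2, both lower (all genes 1.65%, lower 0.878%). The blocked average gave 2 members, both lower, beside 12.7% of all genes called and 6.69% called lower. The median log2 difference of the 9 genes was -0.03 with TOXFL, -0.14 with TOXdeltaN and -0.12 on average, beside 0.00, 0.01 and 0.00 over all tested genes. Without TOXdeltaN-positive replicate 1 the median was -0.43 with TOXdeltaN and -0.29 on average, and without replicate 2 it was 0.01 and -0.04.

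The TOXdeltaN-positive libraries bore on these counts. Without replicate 1 of that group, the unblocked test called 3 members lower with TOXdeltaN and 3 on average, in each case Itga6, Itgal and Itgav. The calls over all genes rose as well, to 12.2% with TOXdeltaN (7.52% lower) and 19.3% on average (10.9% lower). Without replicate 2, no member and 0% of all genes were called with TOXdeltaN, and on average Itga6 alone was called, beside 2.36% of all genes (0.915% lower). In the blocked fit without replicate 1, TOXdeltaN gave 6 members, all lower, Itgae, Itgb7, Itgal, Itga4, Itgav and Itga6, beside 20.2% of all genes (11.7% lower). Without replicate 2 it gave Itga4 and Itga6, beside 2.22% (0.93% lower). The blocked average gave 5 members lower without replicate 1, Itgb7, Itgal, Itga4, Itgav and Itga6, beside 27.8% of all genes (15.2% lower). Without replicate 2 it gave 4, the same genes except Itgav, beside 15.2% (8.02% lower). With TOXFL the blocked test called Itgb7, Itgal, Itga4 and Itga6 lower without either library (edgeR adjusted p = 0.0026 to 0.0277), beside 13.4% of all genes without replicate 1 and 13.3% without replicate 2 (7.4% lower in each). Neither library enters the TOXFL contrast except through the shared estimate of spread and the replicate term.

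**Figure D2:**
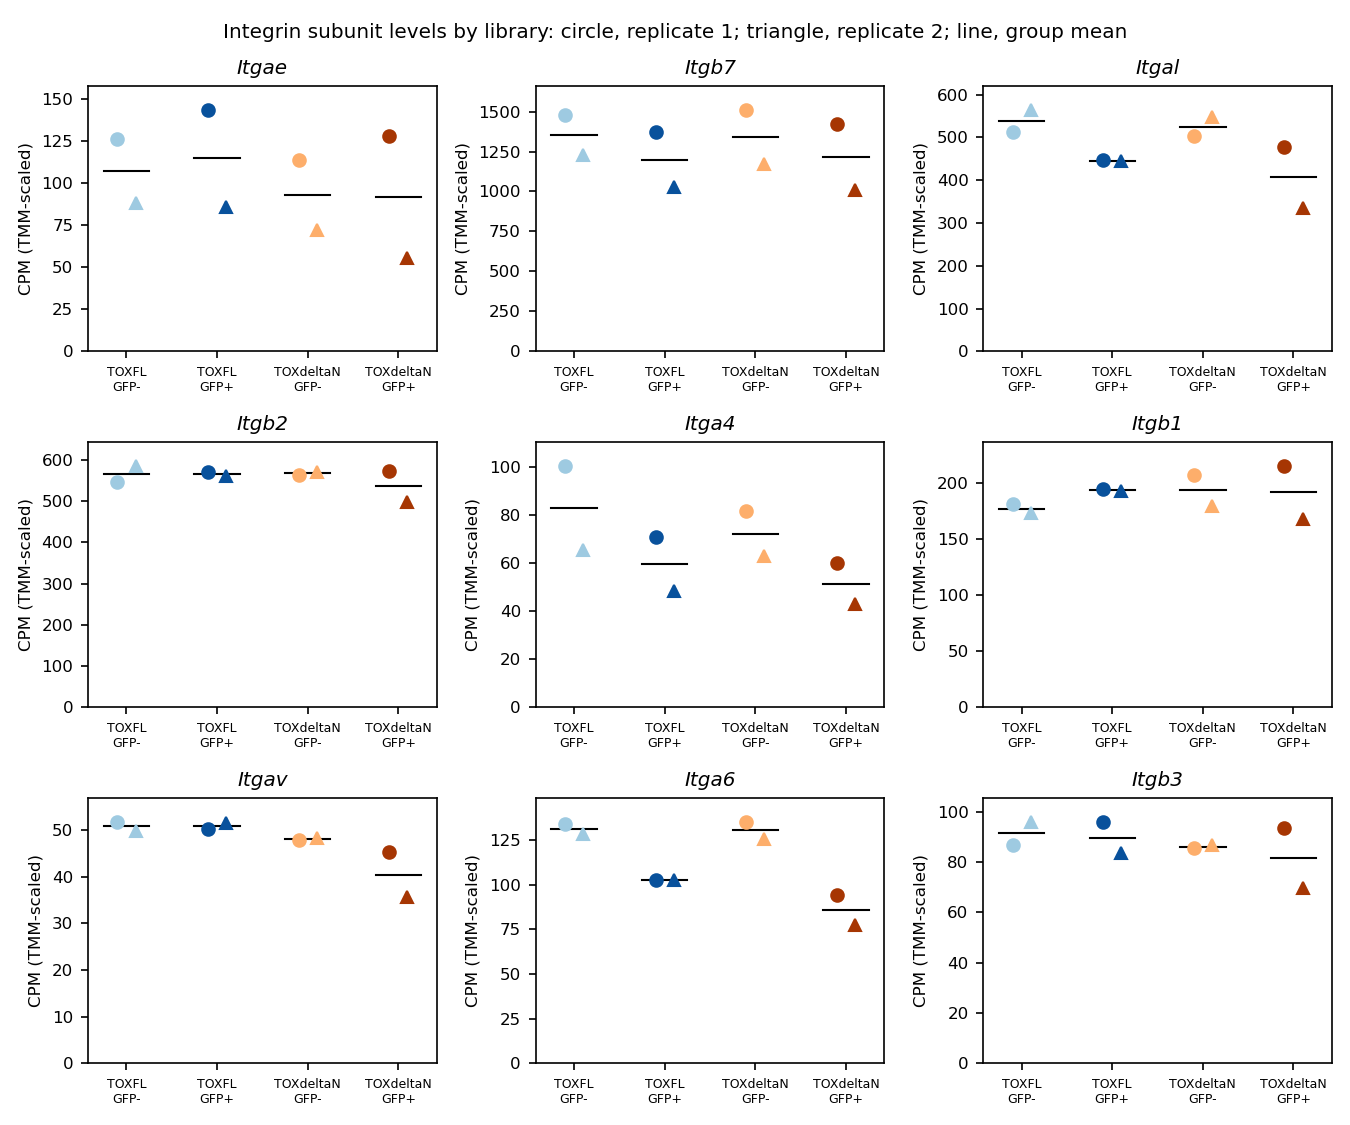
CPM of each tested integrin gene in the 8 libraries, on linear axes from 0, with a line at each group mean. Itga6 and Itgal are lower in all 4 positive than in all 4 negative libraries, whereas Itgae, Itgb7 and Itga4 lie lower in replicate 2 of every group.

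**Figure D3:**
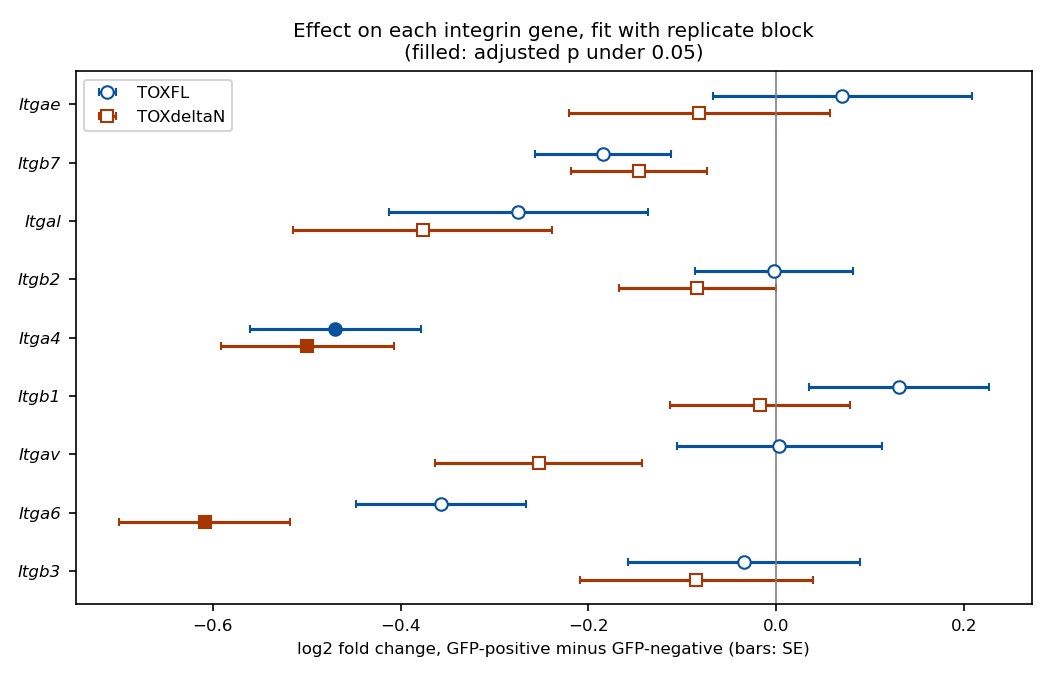
Log2 difference between GFP-positive and GFP-negative cells for each construct in the fit with the replicate block, with bars of 1 SE and filled points for an adjusted p under 0.05. Itga4 is filled for both constructs and Itga6 for TOXdeltaN.

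Itga6 encodes the alpha 6 chain, which pairs with beta 1 as a laminin receptor. Its level was 134 and 128 CPM in replicates 1 and 2 of TOXFL-negative cells, against 102 and 102 CPM in TOXFL-positive cells. In TOXdeltaN-negative cells it was at 135 and 126 CPM, and in TOXdeltaN-positive cells at 94.1 and 77.3 CPM. All 4 positive libraries lay below all 4 negative ones, as they did for 8.08% of tested genes and for 2 of the integrin genes. The group means were 131 ± 4.1 and 102 ± 0.039 CPM for TOXFL-negative and TOXFL-positive cells, and 130 ± 6.6 and 85.7 ± 11.9 CPM for TOXdeltaN (SD, n = 2). The log2 difference was -0.36 (SE 0.11, adjusted p = 0.213) with TOXFL and -0.61 (SE 0.11, adjusted p = 0.171) with TOXdeltaN by edgeR's quasi-likelihood test. On average it was -0.48 (SE 0.077, adjusted p = 0.0222), and with the block -0.48 (SE 0.064, adjusted p = 0.00212). In the blocked fit TOXdeltaN alone passed the test (-0.61, edgeR adjusted p = 0.0167) and TOXFL alone did not (adjusted p = 0.0626).

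The unblocked average call for Itga6 was kept without either of the TOXdeltaN-positive libraries (edgeR adjusted p = 0.0038 and 0.0202). It was lost when any of the other 6 libraries was left out, where the adjusted p lay between 0.0518 and 0.146. The log2 value then ranged from -0.51 to -0.46. The blocked average was called in all 8 such omissions, with an adjusted p of at most 0.0311. The blocked TOXdeltaN call held in 4 of 8 omissions (adjusted p up to 0.356).

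Itga4 encodes the alpha 4 chain, shared by the receptors for VCAM1 and MADCAM1. Its level was 100.5 and 65.6 CPM in TOXFL-negative cells against 71.1 and 48.4 CPM in TOXFL-positive cells. In the TOXdeltaN cultures it was 81.7 and 63.1 CPM without GFP and 60.0 and 43.1 CPM with it. The positive library was lower within each of the 4 same-numbered pairs, but positive replicate 1 of TOXFL lay above negative replicate 2 of both constructs, so the groups overlapped over all libraries. Such a pattern of 4 lower pairs held for 4 integrin genes, Itgb7, Itgal, Itga4 and Itga6, and for 18.9% of all tested genes. Without the block the log2 difference was -0.47 (SE 0.25) with TOXFL, -0.49 (SE 0.25) with TOXdeltaN and -0.48 (SE 0.18, edgeR adjusted p = 0.16) on average. With it, the values were -0.47 (SE 0.091, adjusted p = 0.025), -0.50 (SE 0.092, adjusted p = 0.0361) and -0.48 (SE 0.065, adjusted p = 0.00215).

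The blocked average for Itga4 was called in all 8 omissions of a library (edgeR adjusted p of at most 0.033). The separate blocked calls rested on more of the libraries. For each construct the call held in 2 of 8 omissions, those of the TOXdeltaN-positive libraries, with an adjusted p of up to 0.271 for TOXFL and 0.505 for TOXdeltaN in the others. Itga4 lies at chr2:79255426-79333123 on the plus strand of GRCm38, and 1124 of its exon bases overlap Cerkl on the opposite strand. Cerkl had 95 to 174 counts per library against 1078 to 2696 for Itga4. The library chemistry does not mark strand, so reads in the overlap cannot be assigned.

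Itgb7 and Itgb1 are the beta partners of alpha 4. Itgb7 was at 1480 and 1227 CPM in TOXFL-negative, 1372 and 1026 CPM in TOXFL-positive, 1509 and 1169 CPM in TOXdeltaN-negative and 1424 and 1011 CPM in TOXdeltaN-positive cells. Within each replicate number the positive library was lower, although the groups overlapped. The average log2 difference was -0.16 (SE 0.14) and with the block -0.17 (SE 0.051, edgeR adjusted p = 0.0615). That blocked value was called without TOXdeltaN-positive replicate 1 (-0.20, adjusted p = 0.00324) or replicate 2 (-0.13, adjusted p = 0.0445), and in none of the other 6 omissions. Itgb1 was at 181 and 173, 194 and 193, 207 and 179, and 215 and 168 CPM in the same order of groups. Its highest and lowest values were the replicates of the TOXdeltaN-positive group, and its average log2 difference was 0.06 (SE 0.088).

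Itgae, the alpha E chain of CD103, had 126 and 88.0 CPM in TOXFL-negative and 143 and 85.9 CPM in TOXFL-positive libraries. TOXdeltaN-negative libraries had 113 and 72.2 CPM and TOXdeltaN-positive libraries 128 and 55.6 CPM. Every replicate 1 lay above every replicate 2, while positive and negative libraries were interleaved. The log2 difference was 0.10 (SE 0.38) with TOXFL and -0.02 (SE 0.38) with TOXdeltaN, the widest errors of the 9 genes. With the block the errors were 0.14 and 0.14, and neither value passed the test with all 8 libraries. The TOXdeltaN value turned with the library left out. Without TOXdeltaN-positive replicate 1, Itgae was called lower in the blocked fit (-0.38, edgeR adjusted p = 0.0134), and without replicate 2 it was at 0.18 (adjusted p = 0.381). The unblocked values were -0.74 (adjusted p = 0.22) and 0.46.

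Itgal was at 514 and 564 CPM in TOXFL-negative, 447 and 445 CPM in TOXFL-positive, 503 and 548 CPM in TOXdeltaN-negative and 479 and 335 CPM in TOXdeltaN-positive libraries. All 4 positive libraries were below all 4 negative ones. The average log2 difference was -0.32 (SE 0.10, edgeR adjusted p = 0.121), and with the block -0.33 (SE 0.098, adjusted p = 0.0556). Without TOXdeltaN-positive replicate 1 it was -0.46 (adjusted p = 0.00455) unblocked and -0.48 (adjusted p = 4.17e-05) with the block. Without replicate 2 of that group it was -0.20 (adjusted p = 0.115) and -0.18 (adjusted p = 0.0183). On the log2 scale the Itgal difference moved by over 2 times with the choice between these libraries.

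Itgb2, the partner of Itgal, kept to a narrow range: 548 and 585, 570 and 561, 564 and 571, and 573 and 499 CPM, with the groups in the order used for Itgal. Its average log2 difference was -0.04 (SE 0.065). The Itgb2 to Itgal ratio, per kb, was 2.29 and 2.23 in TOXFL-negative and 2.41 and 2.24 in TOXdeltaN-negative cells. It was 2.75 and 2.71 in TOXFL-positive and 2.58 and 3.21 in TOXdeltaN-positive cells, so all 4 positive libraries had the higher ratio. This ratio of levels was not tested.

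Itgav and Itgb3 encode the chains of a vitronectin and osteopontin receptor. Itgav had 51.7 and 49.9 CPM in TOXFL-negative and 50.1 and 51.6 CPM in TOXFL-positive cells, an overlap, with a log2 difference of 0.00 (SE 0.12). In TOXdeltaN cells it had 47.8 and 48.3 CPM without GFP and 45.2 and 35.6 CPM with GFP, which did not overlap (-0.25, SE 0.12, edgeR adjusted p = 0.433). The share of all genes without overlap between those groups was not counted. Without TOXdeltaN-positive replicate 1, Itgav was called with TOXdeltaN (-0.43, adjusted p = 0.0305), and without replicate 2 it was at -0.09. In the blocked fit without replicate 1 it was called with TOXdeltaN (-0.43, adjusted p = 0.0127) and on average (-0.21, adjusted p = 0.0273). Itgb3 was at 86.9 and 95.9, 95.8 and 83.5, 85.5 and 86.7, and 93.3 and 69.8 CPM in the same order, with overlapping groups and an average log2 difference of -0.05 (SE 0.098).

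The ratios of beta to alpha chain differed between libraries for Itga6 as well. Per kb, Itgb1 exceeded Itga6 by 2.98 and 2.98 times in TOXFL-negative and 3.39 and 3.15 times in TOXdeltaN-negative libraries. In the positive libraries the ratio was 4.2 and 4.16 with TOXFL and 5.05 and 4.8 with TOXdeltaN, above every negative library. Itgav and Itgb3 showed no such separation, with ratios of 2.95 to 3.76 over the 8 libraries. Itgb7 exceeded Itga4 by 74.3 and 94.4 times in TOXFL-negative and 93.2 and 93.5 times in TOXdeltaN-negative libraries. In positive libraries that ratio was 97.3 and 107 with TOXFL and 120 and 118 with TOXdeltaN, again above every negative library. The Itgb1 to Itga4 ratio overlapped, at 6.17 to 9.73 in negative and 9.36 to 13.6 in positive libraries. So did Itgb7 to Itgae, at 15.8 to 30.1. How often other gene pairs separate in this way was not counted. Itgal made up 56.5 to 68.3% and Itgae 12.9 to 25.9% of the summed alpha chain level per kb, and Itgb7 made up 60.2 to 69.1% of that of the beta chains. Transcript ratios do not give the protein pairs on the cell surface, which were not measured.

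A further question was whether the constructs differed. The difference of effects, TOXFL minus TOXdeltaN, called 0 of 9 integrin genes without or with the block (all genes, 0% and 0%), with 0 members at an unadjusted p under 0.05 in either fit and 0 by DESeq2 and limma-voom. The log2 differences lay between -0.04 (Itgb7, SE 0.28) and 0.25 (Itgav, SE 0.17, and Itga6, SE 0.15). For Itga4 the difference of effects was 0.01 (SE 0.36), or 0.03 (SE 0.13) with the block. Between the positive groups, 0 of 9 were called (all genes, 0%, and 0.0075% with the block), and 0 by DESeq2 and limma-voom. With the block 4 members had an unadjusted p under 0.05, beside 1272 of all 13329 genes. Without it there were 2 such members, beside 768 genes. The 2 members were Itgav (log2 0.33, SE 0.12) and Itga6 (0.26, SE 0.11), higher in TOXFL-positive cells, with an edgeR adjusted p of 0.822 each. Without TOXdeltaN-positive replicate 1, the unblocked test called Itga6, Itgal and Itgav higher in TOXFL-positive cells, beside 5.27% of all genes called and 3.69% higher. Without replicate 2 it called no member and 0% of all genes, and Itgal was at -0.10. The first of these comparisons then rests on replicate 2 as the only TOXdeltaN-positive library, assumed to vary as the other groups do. The library left out there was TOXdeltaN-positive replicate 1. With the block and without that library, Itgae (0.68), Itgal (0.45), Itgav (0.51) and Itga6 (0.37) were called higher in TOXFL-positive cells, beside 14.4% of all genes called and 8.49% higher. Itgal was also called in the difference of effects (0.42, edgeR adjusted p = 0.0317), beside 3.34% of all genes and 2.66% higher. With the block and without replicate 2, no member was called in either comparison (all genes, 0.0075% between positive groups and 0.0225% for the difference). The values between positive groups were then 0.11 for Itgae, -0.14 for Itgal, 0.17 for Itgav and 0.15 for Itga6, and the Itgal difference of effects was -0.18. Between the negative groups 0 of 9 were called in either fit (all genes, 0% and 0%), with 0 at an unadjusted p under 0.05 and 0 by DESeq2 and limma-voom. Their log2 differences ran from -0.13 for Itgb1 to 0.21 for Itgae.

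The replicate numbers separated some integrin genes more widely than GFP did. In the blocked fit, replicate 2 was lower than replicate 1 for Itgae (log2 -0.77, SE 0.099, edgeR adjusted p = 0.00341), Itga4 (-0.51, SE 0.065, adjusted p = 0.00343) and Itgb7 (-0.39, SE 0.051, adjusted p = 0.00389). These 3 calls, all lower, compare with 3.02% of all genes called and 1.76% called lower. This comparison was chosen after the data were seen, and the labels do not say what the numbers mark. Itgae was lower in replicate 2 of each group by 0.52 to 1.2 on the log2 scale. Itgb7 had differences of -0.49 to -0.27 and Itga4 of -0.62 to -0.37. With Itgb1 and Itga6, 5 integrin genes were lower in replicate 2 of all 4 groups, as were 13.9% of all tested genes. Itgal, Itgb2, Itgav and Itgb3 had differences of either sign. The Itgae and Itga4 calls held in all 8 omissions of a library, and that of Itgb7 in 6 of 8, being lost without either TOXdeltaN-negative library (adjusted p = 0.0596 and 0.06).

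**Figure D4:**
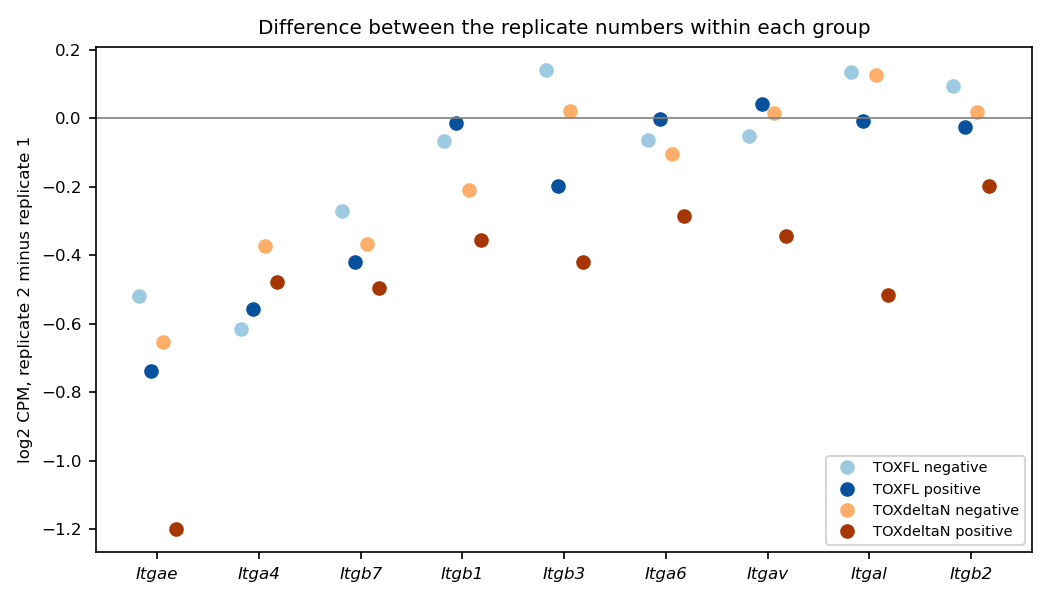
Log2 CPM of replicate 2 minus replicate 1 in each of the 4 groups, for the 9 tested integrin genes ordered by their mean. Itgae, Itga4 and Itgb7 lie below 0 in every group, and the TOXdeltaN-positive group gives the lowest point for every gene except Itga4.

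Genes of other cell types and of the integrin lists moved with the replicate number too. Cdh1, which encodes E-cadherin, the ligand of CD103, had 3.47 to 4.96 CPM in the replicate 1 libraries and 0.302 to 0.839 CPM in the replicate 2 libraries (log2 -2.96, SE 0.27, edgeR adjusted p = 0.000675). Itga9, the alpha 9 chain of a tenascin and osteopontin receptor, had 1.08 to 2.57 CPM in replicate 1 and 0.0352 to 0.533 CPM in replicate 2 (-2.96, SE 0.41, adjusted p = 0.00488). Cd4, the coreceptor of helper T cells, had 21 to 36 counts in every replicate 1 library and 0 or 1 count in every replicate 2 library, so at most 1.23 CPM. Of the 4 markers of CD4, NK and gamma-delta T cells in the table, Ncr1 was not tested. Among the others Cd4 alone was called, beside 3.02% of all tested genes. Foxp3 was lower in replicate 2 of every group, whereas Klrb1c had differences of either sign. The summed level of the 4 markers was 1.0 to 6.13 CPM. The part of other cells in the Itgae, Itgb7 and Itga4 differences was not tested.

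Transcript length moved with the GFP effect over all genes. The smoothed average effect fell with annotated exon length beyond 2000 bases and was -0.17 at the length of Itga4 (13978 bases), -0.12 at that of Itgav, -0.10 at that of Itga6 (9025 bases) and 0.05 at that of Itgb7. TOXdeltaN-positive replicate 2 deviated most, by -0.24 at the length of Itga4. After this curve was removed in each library, the blocked average was -0.39 for Itga6 (edgeR adjusted p = 0.00156), -0.32 for Itga4 (adjusted p = 0.0123) and -0.21 for Itgb7 (adjusted p = 0.0224, which passed the threshold). In that setting no member was called with TOXFL and Itga6 alone with TOXdeltaN (-0.50, adjusted p = 0.0107), beside 4.2% and 2.08% of all genes, and 12.1% on average.

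**Figure D5:**
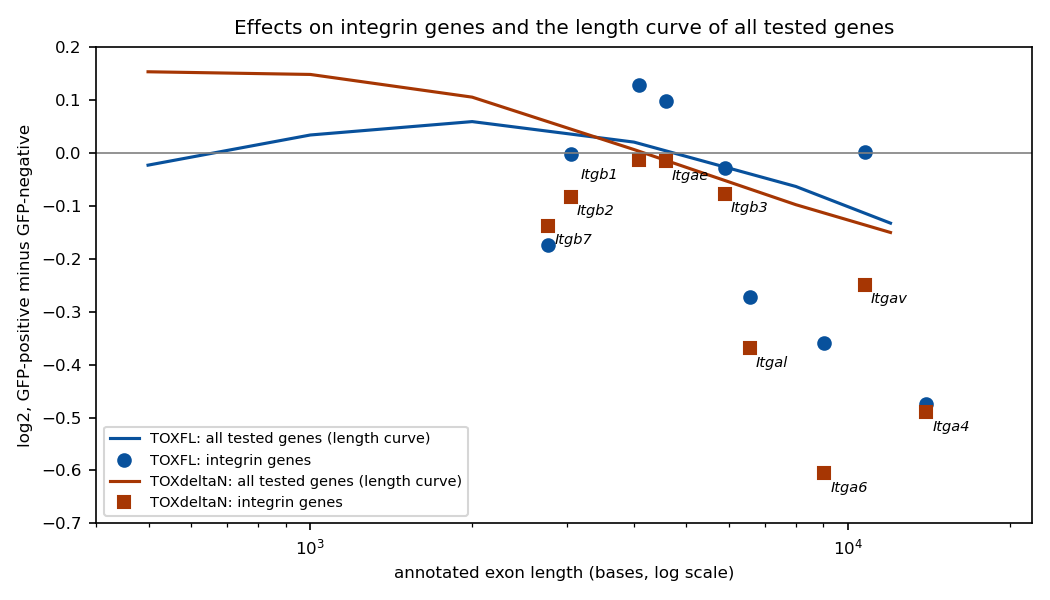
Log2 difference between GFP-positive and GFP-negative cells without the block, against annotated exon length on a log axis, for the 9 integrin genes (points) and as a smoothed curve over all tested genes (lines), for each construct. Itga4, Itga6 and Itgal lie farthest below the curves, and both curves fall with length beyond 2000 bases.

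Outside these 10 genes, integrin subunits were scarce. Of 16 other subunits, 12 were tested and 8 stayed below 1 CPM in every library, among them Itga8 and Itgb6, which had no count. The most abundant was Itga5, the alpha 5 chain of the fibronectin receptor, at 8.54 CPM or 1.73 CPM per kb. None was called with GFP for either construct or on average by edgeR without or with the block, and DESeq2 and limma-voom called 0 in each. At an unadjusted p under 0.05 there were 2, 0 and 0 unblocked, beside 1790, 1632 and 2920 of all 13329 genes. With the block there were 2, 0 and 1, beside 2576, 2574 and 3863.

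Among the genes that activate integrins from inside the cell, Rap1b, a small GTPase upstream of talin, had the highest level per length at 145 CPM per kb (387 to 438 CPM). Fermt2, kindlin 2, had the lowest, with 0 to 6 counts per library. With the longest coding transcript as the length, Skap1 came first at 207 CPM per kb, against 153 for Rap1b. Tln1, talin 1, which binds beta chain tails, had 93.3 CPM per kb. Of 22 activation and adaptor genes, 21 were tested. On the GFP average 0 were called without the block (all genes, 2.42%). An unadjusted p under 0.05 was held by 7 of them, and by 2920 of all 13329 tested genes. DESeq2 called 1 and limma-voom 0 (all genes, 7.94% and 2.56%). With the block 1 was called higher and 3 lower, beside 12.7% of all genes called and 6.69% called lower. The lower genes were Tln1 (-0.41, SE 0.11, edgeR adjusted p = 0.0449), Apbb1ip, the RIAM adaptor that brings talin to integrins (-0.28, adjusted p = 0.0194), and Cyth1, cytohesin 1, a regulator of the beta 2 tail (-0.28, adjusted p = 0.0156). Tln1 stood at 1100 and 1048 CPM in TOXFL-negative, 918 and 791 CPM in TOXFL-positive, 1029 and 958 CPM in TOXdeltaN-negative and 954 and 518 CPM in TOXdeltaN-positive libraries. The higher gene, Tln2, was at 1.2 to 3.68 CPM (0.81, SE 0.24, adjusted p = 0.0499). With the length correction Tln1 was no longer called (adjusted p = 0.0572). Between replicate numbers Rasgrp2, an exchange factor for RAP1 (-0.37, adjusted p = 0.00985), and Cyth1 (-0.26, adjusted p = 0.0466) were lower in replicate 2. Over all genes 3.02% were called in that comparison and 1.76% were called lower.

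Of 11 ligand genes, 6 were tested. Tgfb1, whose latent form binds alpha V integrins, had the highest level per length at 23.7 CPM per kb (103 to 134 CPM). Spp1, which encodes osteopontin, a ligand of alpha V beta 3 and of alpha 4 integrins, was at 2.8 and 4.72 CPM in TOXFL-negative, 6.12 and 9.76 CPM in TOXFL-positive, 3.76 and 5.71 CPM in TOXdeltaN-negative and 6.8 and 10.7 CPM in TOXdeltaN-positive libraries. All 4 positive libraries were above all 4 negative ones. The share of all genes with that pattern was not counted, and the reverse pattern held for 8.08% of tested genes. In the blocked fit Spp1 was higher with TOXFL (1.09, SE 0.18, edgeR adjusted p = 0.0137), with TOXdeltaN (0.88, SE 0.18, adjusted p = 0.0461) and on average (0.98, SE 0.13, adjusted p = 0.00187), and without the block the average was not called (adjusted p = 0.0765). With the block and the length correction the TOXdeltaN call was lost (0.76, adjusted p = 0.0629) and the other two were kept. Spp1 was also higher in replicate 2 (0.67, adjusted p = 0.0215). Vcam1, Madcam1, Fn1, Vtn and Col4a1 were below 1 CPM in every library. Pecam1, an adhesion molecule that T cells share with endothelium, was lower in positive cells (-0.50, SE 0.07, adjusted p = 0.0173 without the block), at 88.3 to 105 CPM against 131 to 143 CPM.

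By the root mean square difference of centred log2 CPM over the 8 libraries, among 9044 genes, the genes most like Itga4 were Gbp6 (0.0875), Arhgap27os3 (0.0953) and Pag1 (0.0955). Gbp6 belongs to a family of close copies, so its counts are uncertain. Those most like Itga6 were Zmym2 (0.061), Btbd11 (0.0619) and Sema4a (0.0677), the last at 176 to 195 CPM in the negative and 108 to 138 CPM in the positive libraries. Likeness here is a description of these libraries only.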

How the data were processed

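The deposited table holds estimated counts from RSEM, 1 row per gene, in whole numbers and not normalised, for 8 libraries made from 8 ng of RNA with the SMART-Seq v4 and Nextera XT kits, per the labels' protocols. The tools were bcl2fastq 2.20, cutadapt, STAR 2.6.1 and RSEM 1.2.28 with GRCm38, per the submitters' processing notes. The annotation release and the step that made whole numbers are not given in the sources used here. The 92 spike-in rows, all with counts of 0, were left out. Gene lengths and positions came from GENCODE M21, in which 31173 of 31815 identifiers matched with their version.

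Counts were tested in R 4.3.3 with edgeR 4.0.16 (filterByExpr, TMM factors of 0.989 to 1.02, quasi-likelihood F-test on 4 group means over all 8 libraries, Benjamini-Hochberg adjustment). The biological coefficient of variation was 0.132, and 0.0958 with the replicate block. On simulated counts for the TOXFL comparison, 200 of 200 changed genes were recovered with 9 false calls, or 5 with the block. The simulated log2 changes were all larger than the fitted GFP differences of the integrin genes. They lay in genes above 200 counts, at a set dispersion of 0.01. Recovery of changes as small as the integrin differences was therefore not measured. Alternatives were the replicate block, RLE scaling, no filter, DESeq2 1.42.0, limma-voom (limma 3.58.1), the compared groups only, a correction for exon length (a lowess curve of span 0.3 per library) and leaving out each library.

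Every group has a replicate 1 and 2. Across tested genes, the deviations of libraries with the same number correlated at 0.168 to 0.241 in all 6 pairs of groups, so the data and not the labels give the pairing. A shared axis of variation aligned with the numbers by chance could give the same signs. All members were named. In the lists of other subunits, activation and adaptor genes and ligands, a gene was named where it passed the test without or with the block, had the highest or lowest level per kb, or bore on a member. Marker genes named singly fall outside this rule. The members and lists were chosen with earlier results of these data known. Patterns were compared over genes with a mean of at least 8 CPM, with 0.1 CPM added before logs. Counting precision is limited by the counts given; molecules were not tagged, so limits for counts of 0 cover counting error only.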

Additional observations from a re-analysis of the deposited data

How the results depend on the processing

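Without the filter on low counts, 1 integrin gene was called with TOXFL, 3 with TOXdeltaN and 3 on average, against 0, 0 and 1, beside 3.17%, 2.41% and 7.78% of 21394 genes. The replicate block gave 1, 2 and 2 and changed no other call of an integrin gene in these comparisons, and DESeq2 gave 1 with TOXdeltaN and 3 on average (all genes, 0.908% and 7.94%). The block with the length correction gave 1 with TOXdeltaN and 3 on average (2.08% and 12.1%). Leaving out each library gave 0 to 3 calls with TOXdeltaN, 0 to 3 on average and 0 to 3 between positive groups, where the calls over all genes ran from 0 to 1621, 5 to 2571 and 0 to 703. Within the blocked fit the omissions gave 0 to 4 calls with TOXFL, 0 to 6 with TOXdeltaN, 2 to 5 on average, 0 to 1 for the difference and 0 to 4 between positive groups, with 30 to 1791, 5 to 2696, 350 to 3704, 0 to 445 and 0 to 1919 over all genes. The causes were not tested. Within the blocked omissions, Itgae with TOXdeltaN ran from log2 -0.38 to 0.18. Itgal there ran from -0.14 to 0.45 between positive groups and from -0.18 to 0.42 for the difference. Outside the blocked omissions, the values with TOXFL, with TOXdeltaN and on average that changed sign were all uncalled. For Itgae the average became -0.0093 with limma-voom, -0.0058 with the block and -0.00083 with the block and length correction. Itgav with TOXFL became -0.00024 without the filter, Itgb2 with TOXFL 0.0041 in the compared groups only, and Itgb3 with TOXFL 0.0015 under the length correction. With a library left out, with TOXFL, Itgae ranged from -0.32 to 0.42, Itgb7 from -0.40 to 0.021, Itgb2 from -0.048 to 0.047, Itgav from -0.023 to 0.029 and Itgb3 from -0.13 to 0.069. With TOXdeltaN, Itgae ranged from -0.74 to 0.46, Itgb7 from -0.40 to 0.088, Itgb2 from -0.18 to 0.013, Itgb1 from -0.20 to 0.15 and Itgb3 from -0.30 to 0.12. On average, Itgae ranged from -0.32 to 0.28, Itgb2 from -0.093 to 0.0053, Itgb1 from -0.036 to 0.14 and Itgb3 from -0.16 to 0.044. The difference between replicate numbers, and leaving out libraries within the blocked fit, were added after seeing the data. With 2 libraries per group, an omission leaves a lone library that is assumed to vary like the other groups.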
